A study of Mus musculus with 24 samples.

Results

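The 10 genes of Wnt signalling described here were read out of 19301, 20084 and 18132 genes tested in the 3 comparisons of the series. They are the receptors Fzd1, Fzd4 and Fzd6, the co-receptors Lrp5 and Lrp6, the receptor partner Reck, and the beta-catenin target genes Axin2, Apcdd1, Lef1 and Nkd1. The 10 members were given by name and found by symbol. All 10 had a value and an adjusted p in every table.

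The series holds 24 mRNA libraries from brain cells of mouse embryos, isolated by flow sorting. Controls were Pdgfrb-Cre, Alk5(flox/+), Zs/+ embryos and mutants were Pdgfrb-Cre, Alk5(flox/flox), Zs/+ embryos, so all groups carried the Cre and 1 copy of the allele written Zs, and the controls also carried 1 floxed copy of Alk5. Alk5 is the older name of Tgfbr1, a type I receptor of TGF-beta signalling, and Pdgfrb drives Cre in pericytes and other mural and mesenchymal cells rather than in endothelium. At stage E11.5 there were 4 control and 4 mutant samples of pericytes, which the labels also call mesenchymal cells. At stage E13.5 there were again 4 and 4 of pericytes, besides 5 control and 3 mutant samples of microvascular endothelial cells. The labels give GMH-IVH as the disease state of the mutants. They do not say whether animals were pooled.

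In the canonical Wnt pathway, a Wnt ligand joins a Frizzled receptor to the co-receptor LRP5 or LRP6, the complex that destroys beta-catenin is held inactive, and beta-catenin enters the nucleus and acts with TCF and LEF factors on target genes. In brain vessels, WNT7A and WNT7B from neural cells reach endothelial cells through RECK and the adhesion receptor ADGRA2, and Norrin signals through FZD4, LRP5 and TSPAN12. This signalling is known to be required for vessels to grow into the brain and to form the blood-brain barrier, while AXIN2, NKD1 and APCDD1 are made in response to the pathway and dampen it.

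The values are the authors' least-squares group means of normalized reads, 1 per group, with the ratio of mutant to control, its p and a step-up FDR. Values per library were not analysed here, so the depth is unknown and no spread within a group can be shown. A gene was called where the deposited FDR, printed here as the adjusted p, was under 0.05. The standard error (SE) and the 95% interval of a log2 ratio are those implied by the authors' ratio and p. Nothing in the labels says whether samples of a group came from separate litters, so a p-value speaks only of the spread among these samples.

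Marker genes were summed to check the labelled cell types. In control endothelial cells the 12 endothelial markers summed to 154103 and 10 pericyte markers to 2010 in the authors' deposited table. In E13.5 control pericytes the 11 pericyte markers with a value summed to 29418 and 9 endothelial markers to 3739, while 10 markers of fibroblasts and meninges summed to 243408 in the authors' deposited table. For Tgfbr1 over the whole gene, the authors' deposited tables gave a log2 ratio of 0.43 in E11.5 pericytes, 0.03 in E13.5 pericytes and -0.11 in endothelial cells (adjusted p = 0.399, 1.00 and 0.859). The reads of the floxed exons themselves were not analysed here. In E13.5 pericytes the mean of Xist, the RNA of the inactive X chromosome, was 36145 in controls and 5.73 in mutants in the authors' deposited table. A difference in sex between these groups and the genotype cannot be told apart at that stage, and none of the 10 genes lies on the X chromosome.

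In control cells the 3 Frizzled genes divided between the cell types. Fzd1 was the Frizzled with the higher level in pericytes, and Fzd4 and Fzd6 had the higher levels in endothelial cells. To compare genes and tables, each group mean was divided by the exonic length in kb and by the sum of its column, in the manner of an RPKM value. On this scale the level of Fzd1 was 27.2 in pericytes of E11.5, 48.9 in those of E13.5 and 3.29 in endothelial cells, computed from the authors' deposited tables. Fzd4 stood at 7.72, 6.45 and 20.8 and Fzd6 at 3.51, 3.42 and 20.0 in the same order. The endothelial level of Fzd6 was thus 5.84-fold above that of E13.5 pericytes, and that of Fzd1 was 14.9-fold below.

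The co-receptor genes and Reck had the higher level in pericytes. Reck, which encodes a membrane-anchored protein that binds WNT7 ligands, had length-scaled levels of 17.2, 28.2 and 2.73 in E11.5 pericytes, E13.5 pericytes and endothelial cells. Lrp6 had 7.64, 24.6 and 4.28, and Lrp5 had 2.97, 10.8 and 1.29. Both co-receptor genes were therefore over 3-fold higher in pericytes at E13.5 than at E11.5, by 3.22-fold for Lrp6 and 3.65-fold for Lrp5. The tables were normalized separately and no group has a spread, so these differences in level are descriptions without a test.

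Among the targets, Apcdd1 differed most between the 2 stages. Apcdd1 encodes a membrane protein that inhibits Wnt receptors, and its length-scaled level was 1.81 in control pericytes at E11.5, 15.4 at E13.5 and 14.6 in endothelial cells. That is 8.51-fold higher in pericytes at E13.5 than at E11.5, while pericytes and endothelial cells at E13.5 lay within 1.06-fold of each other. Axin2, which encodes a scaffold of the beta-catenin destruction complex and is a general target of the pathway, had 16.9 and 17.6 in the pericytes and 1.72 in endothelial cells. Lef1, the nuclear partner of beta-catenin, had 11.9, 5.36 and 16.1, and Nkd1, which encodes an inhibitor that binds Dishevelled, had 28.7, 16.2 and 7.74.

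**Figure D1:**
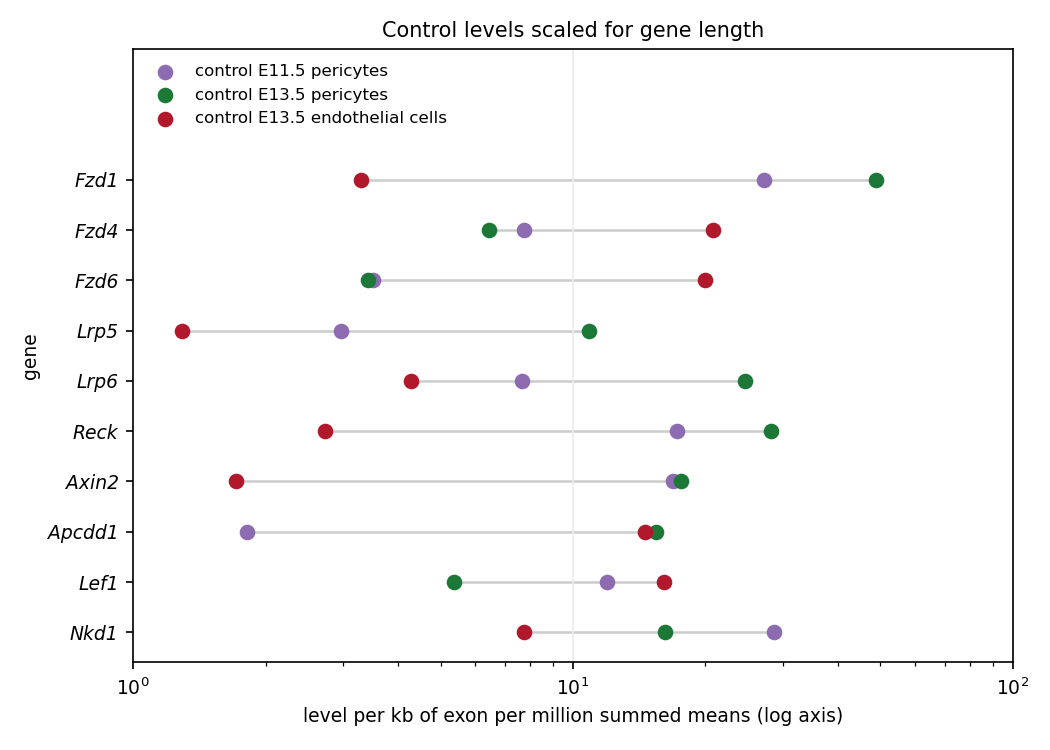
Control levels of the 10 genes scaled for exonic length and for the sum of the group's means, on a log axis, with 1 point per control group and a grey line from the lowest to the highest. Fzd4, Fzd6 and Lef1 are highest in endothelial cells (20.8, 20.0 and 16.1), and Fzd1, Lrp5, Lrp6, Reck, Axin2 and Apcdd1 are highest in E13.5 pericytes.

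From the lowest to the highest gene the levels spanned 15.8-fold in E11.5 pericytes, 14.3-fold in E13.5 pericytes and 16.1-fold in endothelial cells. Nkd1 and Fzd1 led in E11.5 pericytes, Fzd1 and Reck in E13.5 pericytes, and Fzd4 and Fzd6 in endothelial cells, where Lrp5 was lowest. Neighbours in these orders could not be tested against a spread. With the length of the longest transcript in place of all exons, 5, 7 and 2 of the 10 genes changed rank in the 3 control groups, Lef1 and Fzd4 among them in each. In endothelial cells Lef1 then led and Fzd6 stood above Fzd4. The exons of Lef1 cover 8788 bases in all and 3656 in the longest transcript. Because these are bulk samples, fewer cells of a type and less RNA per cell cannot be told apart.

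At E11.5, Apcdd1 and Fzd6 fell in mutant pericytes and none of the 10 genes rose. The mean of Apcdd1 (chromosome 18, 62922231 to 62961179, plus strand, mm10) was 357 in controls and 133 in mutants in the authors' deposited table, a 2.68-fold fall. The authors' deposited table gave a log2 ratio of -1.42 with an SE of 0.31 and adjusted p = 0.00111, the largest ratio in size of the 30 values of these genes. Fzd6 (chromosome 15, 39006034 to 39038188, plus strand) went from a mean of 258 to 142 in the authors' deposited table. This 1.82-fold fall had a log2 ratio of -0.86 with an SE of 0.22, at adjusted p = 0.0084 by the authors' deposited table. FZD6 is a Frizzled known mainly for planar cell polarity.

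These 2 calls are 2 of 10 genes, where 3.35% of the 19301 genes were called in either direction, 2.7% lower and 0.642% higher. The other Frizzled genes did not pass at E11.5. Fzd1 had means of 1745 in controls and 1135 in mutants in the authors' deposited table, with a log2 ratio of -0.62 (95% interval -1.04 to -0.19, adjusted p = 0.0847). Fzd4 had means of 794 and 1064 in the authors' deposited table and a log2 ratio of 0.42 (95% interval -0.08 to 0.92, adjusted p = 0.378). The point estimates of Fzd1 and Fzd4 thus lay on opposite sides of 0, with neither past the threshold.

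The co-receptors, Reck and the remaining targets were not called at E11.5 either. Lrp5 had means of 442 in controls and 327 in mutants, Lrp6 1597 and 1270, and Reck 1259 and 930 in the authors' deposited table. Their log2 ratios of -0.43, -0.33 and -0.44 came with adjusted p-values of 0.201, 0.395 and 0.285 by the authors' deposited table. Nkd1 had means of 1998 and 1423 in the authors' deposited table, which put the log2 ratio at -0.49 (SE 0.19, adjusted p = 0.135). The general target Axin2 had nearly equal means of 1425 in controls and 1498 in mutants in the authors' deposited table, with a 95% interval of the log2 ratio from -0.28 to 0.43. Lef1 had means of 1604 and 1367 and an interval from -0.76 to 0.30 in the authors' deposited table. The intervals of Axin2 and Lef1 leave room for changes of either sign.

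Over the 10 genes at E11.5, 8 had a ratio below 1 and the median log2 ratio was -0.44, beside a median of 0.00 and 50.4% of ratios below 1 over all genes tested. Summed markers of other cells were also lower in the same mutants. All 8 endothelial markers with a value had a ratio below 1 and 1 was called, their sum went from 1221 to 649 and Cldn5, Pecam1, Sox17 and Tie1 had no value in the authors' deposited table. The 10 myeloid markers went from 1974 to 1049, with all 10 ratios below 1 and 1 called, and the 10 fibroblast and meningeal markers from 70608 to 47167, with 9 ratios below 1 and 4 called, in the authors' deposited table. Of the 11 pericyte markers with a value 9 had a ratio below 1 and Kcnj8, Abcc9, Cspg4, Ndufa4l2 and Rgs5 were called, all lower, and the sum went from 19604 to 16203 in the authors' deposited table. The part of these cell types in the fall of Apcdd1 and Fzd6 was not tested. Neither gene was called once the spread was rescaled so that the median absolute test statistic matched that of a standard normal (adjusted p = 0.540 for Apcdd1 and 0.869 for Fzd6, computed from the authors' deposited table). Over all genes at E11.5 this rescaling left 5 calls in place of 646.

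**Figure D2:**
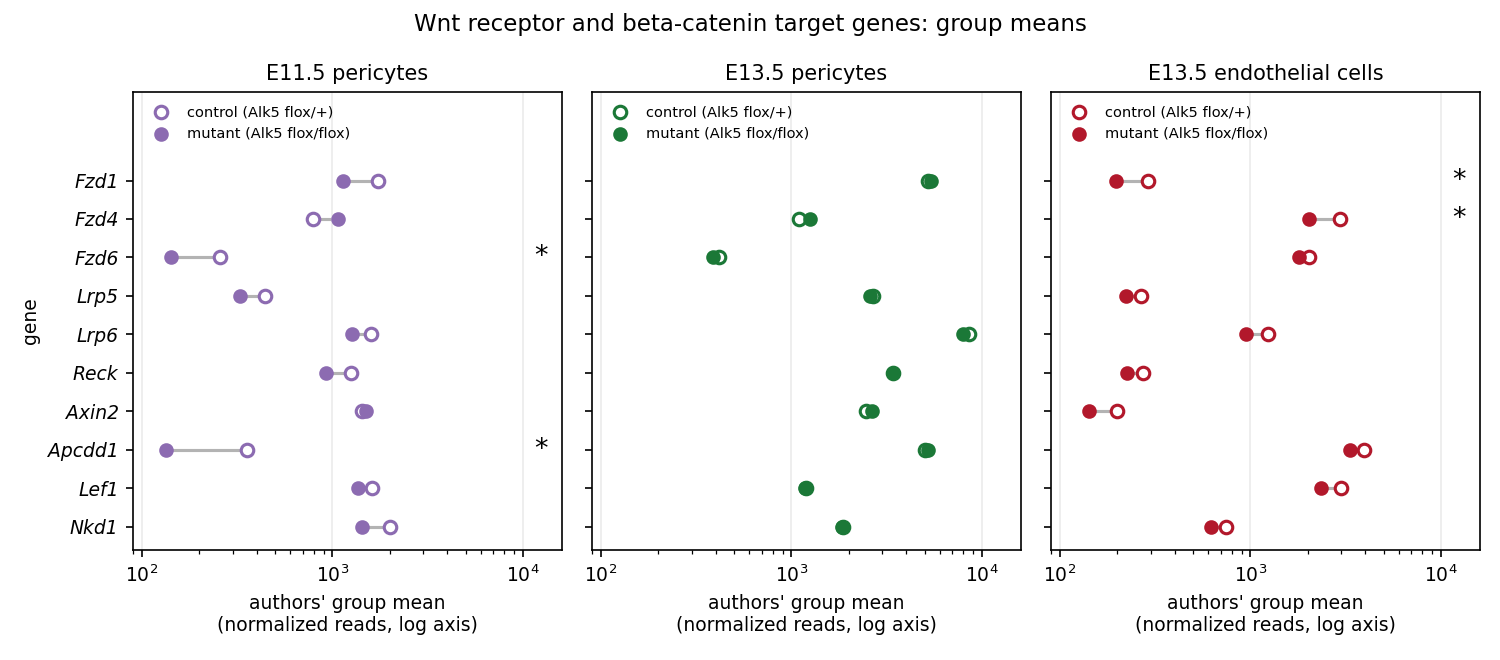
Authors' group means of normalized reads for the 10 genes on a log axis, with 1 panel per comparison, open circles for controls, filled circles for mutants and an asterisk where the adjusted p was under 0.05. The pairs of E13.5 pericytes lie almost on top of each other, Apcdd1 (357 and 133) and Fzd6 (258 and 142) lie apart in E11.5 pericytes, and every endothelial mutant mean lies left of its control.

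At E13.5, none of the 10 genes passed in pericytes, and the intervals around no change were narrow. The number at an unadjusted p under 0.05 was also 0, beside 4.06% of all 20084 genes, and 0.388% of genes were called by the authors' adjusted p, taken as a DESeq2 value. The largest log2 ratio was that of Fzd4, from a control mean of 1101 to a mutant mean of 1251 in the authors' deposited table, at 0.18 (95% interval -0.09 to 0.46). The lowest was that of Fzd6, from 419 to 386, at -0.12 (95% interval -0.34 to 0.10) in the authors' deposited table. Reck had means of 3425 in controls and 3426 in mutants, and its 95% interval ran from -0.12 to 0.12 on the log2 scale in the authors' deposited table.

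The co-receptors and targets of E13.5 pericytes lay as close. Lrp6 had means of 8542 and 7972 and Lrp5 2684 and 2593 for controls and mutants in the authors' deposited table. Fzd1 had means of 5219 and 5427 in the authors' deposited table. Apcdd1, which fell at E11.5, had means of 5042 in controls and 5204 in mutants at this stage, with a 95% interval of the log2 ratio from -0.16 to 0.25 in the authors' deposited table. Axin2 had means of 2458 and 2636, Lef1 1196 and 1180, and Nkd1 1874 and 1853 in the authors' deposited table. Over the 10 genes 5 ratios were below 1 and the median log2 ratio was -0.01, beside 0.00 over all genes. The implied SE ran from 0.06 to 0.15, against 0.18 to 0.31 at E11.5.

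The difference of the log2 ratios between the 2 pericyte stages passed its own test for 1 gene of 10, Apcdd1. Its log2 ratio was 1.47 lower at E11.5 than at E13.5 (difference -1.47, SE 0.33, adjusted p = 0.00358 over 18267 genes, a normal test of the difference in the authors' deposited DESeq2 estimates), and 1.43% of all genes passed this test. Fzd6 and Fzd1 had differences of -0.74 (adjusted p = 0.104 by the same test of DESeq2 estimates) and -0.68 (adjusted p = 0.128). The difference of Fzd6 passed with means scaled to the same sum (-0.80, adjusted p = 0.0475 by the same test of DESeq2 estimates), and did not pass as deposited. Axin2 had a difference of -0.03, with a 95% interval from -0.45 to 0.39. With the rescaled spread 0 of the 10 differences passed (adjusted p = 0.715 for Apcdd1). By the Xist means above, sex and genotype cannot be told apart in the E13.5 pericytes that enter each of these differences.

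In E13.5 endothelial cells, Fzd4 and Fzd1 fell in mutants and every one of the 10 genes had a ratio below 1. FZD4 is the receptor for Norrin and for several Wnts on brain endothelium. The mean of Fzd4 (chromosome 7, 89404355 to 89413134, plus strand) was 2952 in controls and 2022 in mutants in the authors' deposited table, a 1.46-fold fall. The log2 ratio of this fall was -0.55, with an SE of 0.16 and adjusted p = 0.0128 by the authors' deposited table. Fzd1 (chromosome 5, 4753839 to 4758035, minus strand) fell 1.48-fold, from a mean of 291 to 197 in the authors' deposited table (log2 ratio -0.56, SE 0.17, adjusted p = 0.0246). Fzd4 and Fzd6 were the higher of the 3 Frizzled genes in these control cells, at length-scaled levels of 20.8 and 20.0, and Fzd1 stood at 3.29.

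Of all 18132 genes 7.3% were called in either direction, 2.19% lower and 5.11% higher in mutants, beside 2 of 10 called lower here. The bases before the start site of both genes are shown with 1 window of Lef1. Fzd4 and Fzd1 are the called genes. Among the member windows searched, this Lef1 window holds most copies of the core of the TCF and LEF motif. That core was searched as CTTTGA on both strands, in the 250 bases before each RefSeq start on GRCm38.p6 (mm10). Capitals mark a match, here on the opposite strand as TCAAAG. The sequences run 5′ to 3′ on the strand of the gene and stop before any annotated exon of GENCODE.
Fzd1, chr5:4758217-4758466, minus strand: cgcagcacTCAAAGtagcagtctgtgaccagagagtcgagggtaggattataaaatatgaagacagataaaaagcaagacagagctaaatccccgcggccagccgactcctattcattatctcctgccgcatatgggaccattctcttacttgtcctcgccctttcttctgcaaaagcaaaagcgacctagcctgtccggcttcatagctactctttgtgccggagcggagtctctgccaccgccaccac
Fzd4, chr7:89404116-89404354, plus strand: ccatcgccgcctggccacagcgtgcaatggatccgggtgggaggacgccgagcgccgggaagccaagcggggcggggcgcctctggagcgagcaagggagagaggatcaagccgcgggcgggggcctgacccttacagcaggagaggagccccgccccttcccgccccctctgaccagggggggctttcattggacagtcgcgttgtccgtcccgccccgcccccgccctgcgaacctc
Lef1, chr3:131156044-131156293, plus strand: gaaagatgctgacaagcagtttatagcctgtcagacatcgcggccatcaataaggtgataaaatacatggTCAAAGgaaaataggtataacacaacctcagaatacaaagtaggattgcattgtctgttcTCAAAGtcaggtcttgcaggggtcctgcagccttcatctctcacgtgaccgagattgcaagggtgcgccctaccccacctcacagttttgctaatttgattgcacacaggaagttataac

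The search among the members covered 9 such RefSeq windows for 6 of the 10 genes, 4 of them for Lef1. Fzd6, Lrp5, Lrp6 and Apcdd1, and so both genes called at E11.5, were not analysed for the motif. The windows are not all separate, since 2 of those of Lef1 overlap. The motif was in 2 of the 9 windows, beside 13.8% of all 32851 windows. For both starts with a match, no GENCODE transcript of the gene holds the bases just after the start. In Fzd1 the match begins 242 bases before the start. The Lef1 window lies inside the gene, before an internal start, and holds 2 matches, at 180 and 120 bases before it. The window of Fzd4 has 72.8% G and C, that of Fzd1 51.2% and this one of Lef1 44.8%, beside a median of 52.4% over all windows. A match is a run of letters and not evidence of binding.

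Besides Fzd4 and Fzd1, 4 of the 10 genes had an unadjusted p under 0.05 in endothelial cells without passing over all genes, where 20.0% of all genes had one. Axin2 went from a mean of 199 to 143 in the authors' deposited table (log2 ratio -0.48, SE 0.19, adjusted p = 0.113). Lef1, the target with the highest length-scaled level in these cells, went from 2980 to 2342 (log2 ratio -0.35, adjusted p = 0.142 in the authors' deposited table). Apcdd1 went from 3960 to 3317 (log2 ratio -0.26, adjusted p = 0.136) and Lrp6 from 1235 to 949 (log2 ratio -0.38, adjusted p = 0.128 in the authors' deposited table). These 4 genes are 3 targets and a co-receptor.

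The remaining 4 genes had intervals that include 0 in endothelial cells. Fzd6, nearly as high as Fzd4 per length, had means of 2033 in controls and 1807 in mutants in the authors' deposited table, with a 95% interval of the log2 ratio from -0.42 to 0.08. Nkd1 had means of 744 and 622, Reck 275 and 225, and Lrp5 266 and 224 in the authors' deposited table. Their log2 ratios were -0.26, -0.29 and -0.25 in the authors' deposited table. Over the 10 genes the median log2 ratio was -0.32, beside -0.01 over all genes, and 51.7% of all genes, or 56.9% of those above the median control level, had a ratio below 1.

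**Figure D3:**
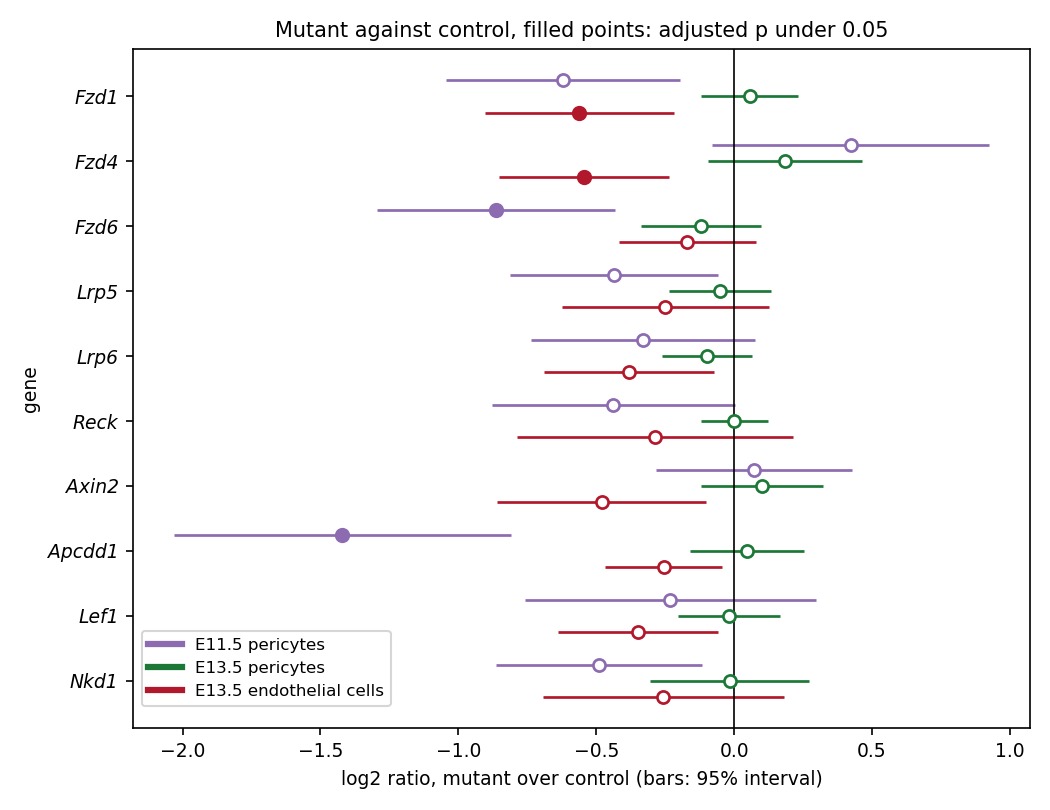
Log2 ratio of mutant to control for the 10 genes in the 3 comparisons, with horizontal bars for the 95% interval implied by the authors' p and filled points where the adjusted p was under 0.05. Apcdd1 (-1.42) and Fzd6 (-0.86) are filled for E11.5 pericytes and Fzd4 (-0.55) and Fzd1 (-0.56) for endothelial cells, while the E13.5 pericyte points cluster around 0.

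Markers of several cell types differed between the groups of the same comparison. Of the 12 endothelial markers 9 had a ratio below 1, with a median log2 ratio of -0.22 and a sum that went from 154103 to 133411, and Kdr, the VEGF receptor gene, was called (log2 ratio -0.44, adjusted p = 0.0209 in the authors' deposited table). All 10 erythroid markers had a ratio above 1 and 9 were called, with a median log2 ratio of 3.94, and their sum went from 64130 to 1716490 in the authors' deposited table. The 10 myeloid markers had a median log2 ratio of 1.16, with 3 called higher, and a sum that went from 11998 to 20646 in the authors' deposited table. Of the 10 pericyte markers with a value 8 had a ratio below 1 and 0 were called, their sum went from 2010 to 1353, and Atp13a5 and Higd1b had no value in the authors' deposited table. Of 9 tested fibroblast and meningeal markers 4 had a ratio below 1, with a median log2 ratio of 0.01, and Slc6a13 was called higher. Fzd1, which fell, had a length-scaled control level 14.9-fold higher in E13.5 pericytes. Reck, Axin2, Lrp5, Lrp6 and Nkd1 were 10.3-, 10.2-, 8.38-, 5.74- and 2.09-fold higher there and were not called in endothelial cells. The part of any of these markers in the values of the Wnt genes was not tested. Scaling both groups to the same sum of means lowered every endothelial log2 ratio by 0.13, which called 6 of the 10 genes, all lower. Over all genes this scaling called 2199, and the higher calls moved from 926 of 1323 to a share of 28.8%. With the 10 erythroid markers left out of those sums, a choice made after seeing the data, the calls were again Fzd4 and Fzd1. With the rescaled spread neither passed (adjusted p = 0.462 for Fzd4 and 0.558 for Fzd1), computed from the authors' deposited table. Over all genes the rescaling left 49 calls in place of 1323 in endothelial cells.

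The same 2 genes differed between the cell types at E13.5. The log2 ratio of Fzd4 was lower in endothelial cells than in pericytes by a difference of -0.73 (SE 0.21, adjusted p = 0.0213 over 16920 genes, a normal test on the authors' DESeq2 estimates), and that of Fzd1 by -0.62 (SE 0.20, adjusted p = 0.044). Of all genes 3.94% passed this test. Axin2 had a difference of -0.58 that did not pass (adjusted p = 0.137 by the same test of DESeq2 estimates), and Apcdd1 one of -0.30 (adjusted p = 0.305). This difference and the one between stages share the E13.5 pericyte table, where by the Xist means sex and genotype cannot be told apart. The test takes the 2 cell types as independent, and the labels do not say whether they came from the same embryos. All 10 differences between the cell types were negative, with a median of -0.29 beside -0.02 over all genes. With the rescaled spread 0 of the 10 passed (adjusted p = 0.278 for Fzd4 and 0.542 for Fzd1).

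By the distance over the 3 log2 ratios, the genes most like Apcdd1, the member with the smallest adjusted p, were Cavin1, Abca1 and Pcdhgc4 among 8445 genes of at least median level. Cavin1, which encodes a coat protein of caveolae, stood at -1.21 and 0.09 in pericytes of E11.5 and E13.5 and at -0.29 in endothelial cells on the log2 scale in the authors' deposited tables. Its distance to Apcdd1 was 0.21 over these 3 values. Abca1, a cholesterol exporter gene, and the protocadherin gene Pcdhgc4 lay at 0.25 and 0.26.

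The wider pathway was read from 123 genes in 9 lists by role. The lists were chosen with earlier results of these data known, so their shares of calls are descriptions and not independent support. At E11.5, 98 of the 113 genes other than the 10 had a value and 93 were tested. Of these 9 fell and 1 rose, 10.8% beside 3.35% of all genes, and their median log2 ratio was -0.28. In E13.5 pericytes 1 of 105 tested fell, 0.952% beside 0.388%, with a median of 0.00. In endothelial cells 4 of 87 fell, beside 2.19% of all genes, and 1 rose, beside 5.11%, with a median of -0.15. With means scaled to the same sum 17 of the 87 were called there, 16 of them lower. Over all 18132 genes 2199 were called under that scaling, 1565 of them lower. With the 10 erythroid markers left out of the sums, a choice made after seeing the data, 6 of the 87 were called, 5 of them lower. With the rescaled spread 0 of these genes were called at E11.5 or in endothelial cells, so every such call named below is lost under it. Over all genes it left 5 calls in place of 646 at E11.5 and 49 in place of 1323 in endothelial cells.

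At E11.5 the genes that fell included receptors, genes of their turnover, nuclear factors and antagonists, with 1 ligand and 1 barrier gene. The counts by list here and in the next paragraph stand beside 2.7% of all genes called lower and 0.642% called higher. No list was tested against these shares. Pericyte, fibroblast, endothelial and myeloid markers also had calls lower in the same mutants, as given above. Of 19 receptors and co-receptors 2 fell, Fzd6 and the Frizzled gene Fzd9, which went from 119 to 22.7 in the authors' deposited table (log2 ratio -2.39, SE 0.54, adjusted p = 0.00159). Of 5 genes of receptor turnover 2 fell at low means. Lgr5, an R-spondin receptor gene, had a log2 ratio of -1.67 and Rnf43, which encodes a ubiquitin ligase that removes Frizzleds from the cell surface, one of -2.15 in the authors' deposited table. Both are also pathway targets, so with Apcdd1 they make up the 3 of 16 tested targets that fell, with a median log2 ratio of -0.24 for that list.

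Of 14 nuclear factors 2 fell at E11.5 and all 14 had a ratio below 1, beside 50.4% of all genes. They were Tle2 and Tle5, which belong to the Groucho gene family, at -1.22 and -0.88 on the log2 scale in the authors' deposited table. Of 11 tested secreted antagonists 2 fell, Sfrp1 from 6121 to 4171 and Sfrp2 from 4669 to 3525 in the authors' deposited table. Among 16 tested ligands and agonists Wnt11 fell from 66.4 to 26.6, and Wnt16 rose from 29.9 to 62.3 in the authors' deposited table. Of 11 tested barrier genes 1 fell, the forkhead gene Foxq1, with a log2 ratio of -1.47 (adjusted p = 0.0129 in the authors' deposited table). None of 15 cytoplasmic transducers passed, and beta-catenin itself, Ctnnb1, had means of 7834 and 4798 in the authors' deposited table (log2 ratio -0.71, SE 0.26, adjusted p = 0.107), while Gsk3b, the kinase that marks beta-catenin for destruction, had a log2 ratio of 0.07 in the authors' deposited table. Of the 4 genes of ligand secretion none passed, and Wls, the Wnt carrier gene, had a log2 ratio of -0.02 in the authors' deposited table.

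**Figure D4:**
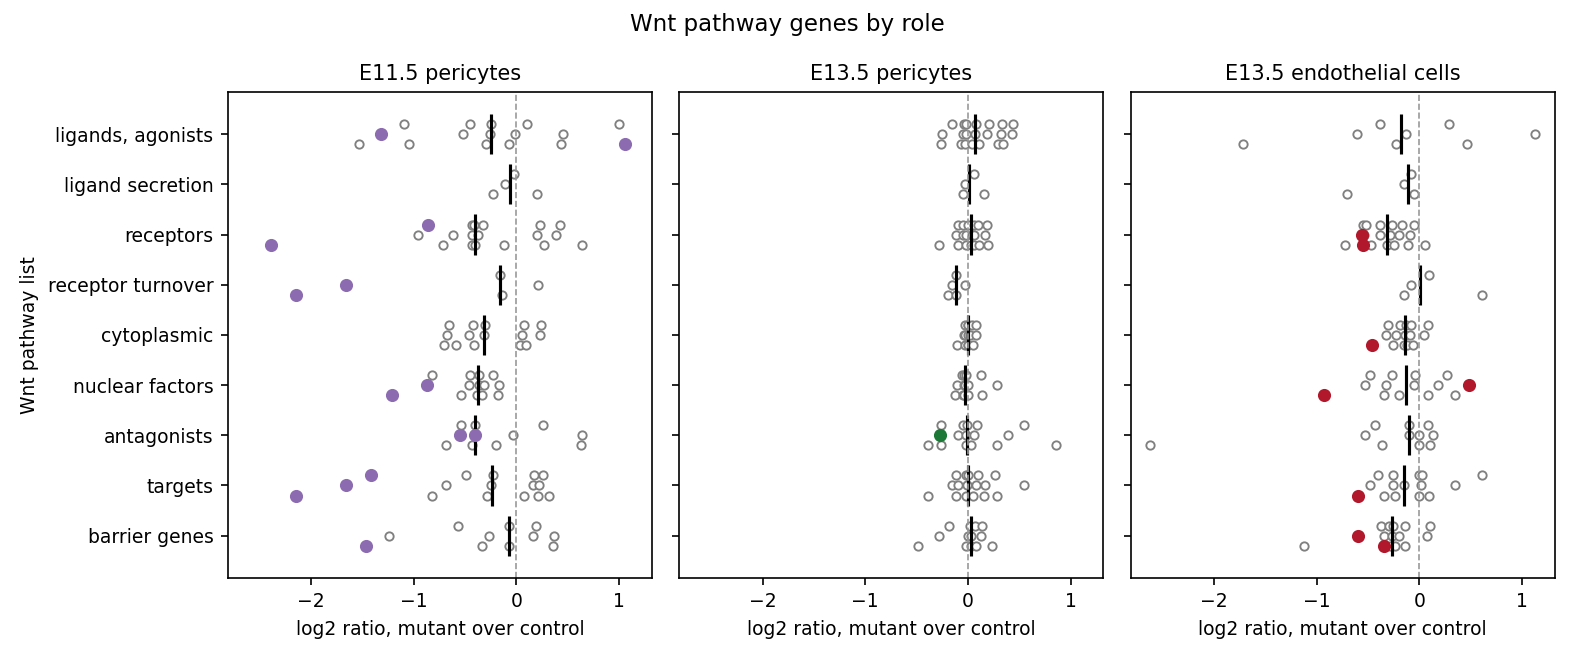
Log2 ratio of mutant to control for the tested Wnt pathway genes in 9 lists by role, with 1 point per gene, coloured where the adjusted p was under 0.05, and a black bar at the list's median. In E11.5 pericytes the receptor (-0.40), nuclear factor (-0.37) and antagonist (-0.40) medians lie left of 0, in E13.5 pericytes the medians lie between -0.12 and 0.07, and in endothelial cells the receptor median is -0.31.

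In E13.5 pericytes the single call was Dkk3, a member of the Dickkopf family of secreted proteins, which fell 1.21-fold from 2674 to 2210 (adjusted p = 0.0302 in the authors' deposited table). Scaled to the same sum, Dkk3 no longer passed and 1 other gene was called higher, while the share of higher calls over all genes moved from 57.7% to 69.8%. The most abundant genes of the other lists lay close to 0. Adgra2, the partner of Reck, had means of 8846 and 9015, Ctnnb1 28261 and 26266, Wnt5a 6136 and 6061 and Ccnd1 5769 and 6427 in the authors' deposited table. Their log2 ratios were 0.03, -0.11, -0.02 and 0.16 in the authors' deposited table, with adjusted p of 1.00 each.

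In endothelial cells 18 of 19 receptors and co-receptors had a ratio below 1, beside 51.7% of all genes and 56.9% of those above the median control level. Fzd4 and Fzd1 were the 2 that fell, beside 2.19% of all genes, and the median log2 ratio of that list was -0.31. The list includes the members Fzd1, Fzd4, Fzd6, Lrp5, Lrp6 and Reck, so their values and both calls are those given above. Among the partners of Fzd4 and Reck, named after their values were seen, Tspan12 went from 3469 to 2665 (log2 ratio -0.38, adjusted p = 0.216) and Adgra2 from 539 to 505 (log2 ratio -0.09, adjusted p = 0.831 in the authors' deposited table). Of 15 tested targets 1 fell, Tnfrsf19, which encodes the receptor TROY, from 1670 to 1103 in the authors' deposited table (log2 ratio -0.60, SE 0.16, adjusted p = 0.00697). It is also 1 of the 2 barrier genes of 15 that fell, with the amino acid transporter gene Slc7a5, for which the authors' deposited table gave a log2 ratio of -0.35 (adjusted p = 0.027).

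The 2 nuclear factors that passed were called in opposite directions in endothelial cells, of 14 tested. Over all genes 7.3% were called, 2.19% lower and 5.11% higher, and no list was tested against these shares. Pygo1, which encodes a co-activator of beta-catenin, fell from 201 to 105 and Tle5 rose from 456 to 640 in the authors' deposited table. Tle5 thus had a log2 ratio of 0.49 in endothelial cells and -0.88 in E11.5 pericytes in the authors' deposited tables, and that difference was not tested. The tankyrase gene Tnks, whose product marks axin for destruction, was the 1 of 15 cytoplasmic transducers that fell, from 1154 to 841 (log2 ratio -0.46, adjusted p = 0.00184 in the authors' deposited table). None of 8 tested ligands, 4 secretion genes, 4 turnover genes and 11 antagonists passed, and the most abundant of these, Igfbp4, Tmed2, Znrf3 and Wnt5a, stood at -0.10, -0.08, -0.15 and -0.38 on the log2 scale in the authors' deposited table.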

How the data were processed

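The labels' protocols describe mRNA libraries read on a NovaSeq6000 sequencer. The submitters' processing notes name Bowtie2, DESeq2 and Partek, without versions, and the mouse build mm10. The sources used here do not give the annotation, the counting or the filters. For each gene the deposited tables list a p-value, an FDR by the step-up method, the ratio and the signed fold of mutants over controls, and the authors' least-squares mean of each group, a signal whose scale factor is not stated. On checking, the deposited ratio was the quotient of the 2 means, and the deposited FDR was the Benjamini-Hochberg value over the genes that have one.

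From these, log2 ratios were computed, with the SE implied by ratio and p under a Wald test. Differences between comparisons, which share no libraries, were divided by the root of the summed squared SE, with Benjamini-Hochberg adjustment over all genes tested in both. That SE takes the comparisons as independent. The labels do not say whether the E13.5 pericytes and endothelial cells came from the same embryos. The design foresaw tests on values per library, and the authors' values took their place. Exonic lengths and positions come from GENCODE M21 (mm10), which held 97.5% of the tested symbols of each table, and promoters from RefSeq. The members and lists were chosen with earlier results of these data known. Named genes are all members, up to 4 called genes per list and comparison or, with none called, up to 2 of the highest control level, of which not all are printed, and the 3 genes nearest to 1 member. Steps were tested on simulated data and run in Python 3.11.15 (scipy 1.17.1 for tests, pandas 2.3.3 and numpy 2.4.6 for tables, matplotlib 3.10.9 for plots). The alternatives were an FDR of 0.1, a log2 ratio of at least 1, other scalings, no filter on low genes and a rescaled spread.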

Additional observations from a re-analysis of the deposited data

Results flagged for a closer look

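Differences of the mutant effect between stages or cell types passed their own test for 3 values, 1 of 10 genes between stages and 2 of 10 between cell types. The log2 ratio of Apcdd1 was lower in pericytes at E11.5 than at E13.5 by a difference of -1.47. The log2 ratios of Fzd4 and Fzd1 were lower in endothelial cells than in pericytes at E13.5, by differences of -0.73 and -0.62. Over all genes 1.43% passed the test between stages and 3.94% that between cell types. Both tests use the E13.5 pericytes, in which sex and genotype cannot be told apart by the Xist means. With the rescaled spread none of the 3 passed (adjusted p = 0.715 for Apcdd1, 0.278 for Fzd4 and 0.542 for Fzd1 by the same normal test).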

How the results depend on the processing

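No paired analysis was possible because the tables hold group means and no values per library, and for the same reason leaving out single libraries was not run. With an FDR of 0.1 the pathway genes called beside the 10 members numbered 2 in place of 1 in E13.5 pericytes and 9 in place of 5 in endothelial cells. With a log2 ratio of at least 1 as well, members called numbered 1 in place of 2 at E11.5 and 0 in place of 2 in endothelial cells, and other pathway genes 0 in E13.5 pericytes and 0 in endothelial cells. With means scaled to the same sum, 6 members and 17 other pathway genes were called in endothelial cells, beside 2199 in place of 1323 over all genes. Under that scaling the differences that passed numbered 2 in place of 1 between stages, Fzd6 with Apcdd1, and 4 in place of 2 between cell types. The log2 ratios of Lef1 and Nkd1 in E13.5 pericytes turned from -0.02 and -0.02 to 0.00032 and 0.0029. With the rescaled spread 0 members and 0 other pathway genes were called at E11.5, 2 other pathway genes in E13.5 pericytes, and 0 members and 0 other pathway genes in endothelial cells, and 0 differences passed in either test, while over all genes 5, 142 and 49 were called in place of 646, 78 and 1323. The length of the longest transcript moved the rank of 5, 7 and 2 members in the 3 control groups. The cause was not tested. Over single genes and their differences, 200 of 220 values under an alternative kept their direction and side of the threshold. Of the rest, 10 lost a call, 8 gained one and 2 turned. Most of the 220 were not called to begin with, and only the scalings could change a direction. The count therefore does not measure how stable the calls are. Of the 10 lost calls 7 came with the rescaled spread, under which no member and no difference passed. Depth is unknown, so no counting error could be set beside low means.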
